A study of Mus musculus with 2 samples.

Results

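The clustered protocadherins are cell-surface adhesion proteins encoded in 3 adjacent gene clusters, alpha, beta and gamma. They were taken here as all probes, other than controls, whose gene name on the array is Pcdha, Pcdhb, Pcdhga, Pcdhgb or Pcdhgc with an isoform number, including the C-type isoforms Pcdhac1, Pcdhac2 and Pcdhgc5. The rule found 40 probes for 36 genes, among 37074 gene names and 56605 probes on the array. The alpha cluster had 8 probes for 7 genes, the beta cluster 23 probes for 22 genes and the gamma cluster 9 probes for 7 genes. Total RNA of the olfactory bulb was measured on 2 Agilent arrays of 1 colour, 1 from a mouse kept under odor-enriched conditions and 1 from a control mouse under standard odor conditions. The labels used here give no strain, age or sex, no odorants and no length of exposure. They speak of bulb neurons as the tissue, yet the source is the bulb and no step that isolates cells is named. Each condition had a lone array, so nothing here was replicated or tested, and how far a value would vary between mice is unknown. A difference is always the odor-enriched value minus the control value.

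Each clustered protocadherin carries extracellular cadherin repeats that bind the same isoform on another membrane, a transmembrane segment and a cytoplasmic tail. Neurons choose a small set of isoforms by stochastic use of promoters in front of variable exons, with CTCF and cohesin looping the chosen promoters to enhancers, and the set marks a cell's surface so that its own branches can recognise each other. In the mouse olfactory system these genes are known for the sorting of sensory axons into glomeruli, and loss of all 3 clusters disorders those axon terminals. In the alpha and gamma clusters each variable exon is spliced to constant exons that all isoforms of that cluster share, whereas each beta gene is a separate exon of its own with no constant part.

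All member probes lay on the plus strand of chromosome 18 in the mm9 coordinates of the files. Alpha probes spanned 37114742 to 37347294, beta probes 37427011 to 37680728 and gamma probes 37823813 to 38001437. A table of RefSeq genes holds 58 gene names of this family. All 22 beta names had a probe, against 7 of 14 alpha and 7 of 22 gamma names, and the remaining 22 isoforms were not analysed here. The RefSeq transcripts that the array design lists for a probe show how far it separates isoforms. Both Pcdhac2 probes, at 37344758 and 37347235, list transcripts of Pcdha4, Pcdha9, Pcdhac1 and Pcdhac2 and lie 3′ of every other alpha probe. Both Pcdhga9 probes, at 37999725 and 38001378, list transcripts of Pcdhga1, Pcdhga5, Pcdhga6 and Pcdhga9 and lie 3′ of the Pcdhgc5 probe. These 4 probes therefore lie in the shared 3′ region of their cluster and do not separate the isoform they are named for from the others, and the design names at most 4 genes per probe, so further isoforms may be read too. The Pcdha8 probe also lists Pcdha7 transcripts and 2 predicted readthrough genes, Gm37013 and Gm38667, so its value cannot be given to Pcdha8 alone. The Pcdha4 probe lists Gm37013 beside Pcdha4.

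Most clustered protocadherin probes were bright enough to be read on both arrays. A probe was called well above background by the scanner software's flag, and a gene was measured on both arrays where it had such a probe. That held for 27 of 36 members, with 5 in the alpha, 17 in the beta and 5 in the gamma cluster. A further 6 members, Pcdha11, Pcdhb8, Pcdhb9, Pcdhb11, Pcdhb13 and Pcdhga5, were well above background on the control array only, and 0 on the odor-enriched array only. These 6 are 18.2% of the 33 members seen on either array, beside 9.98% of 27041 genes seen on either array that were seen on the control array only. The lowest processed signal well above background was 7.97 brightness units on the odor-enriched array and 4.85 on the control array. A dim gene can thus pass on the control array alone without a lower signal in the odor-enriched bulb. Pcdhga5 did so with 6.97 in the odor-enriched and 6.37 in the control bulb. The shares above were not matched for signal. Pcdhac1, Pcdhb5 and Pcdhga12 were not well above background on either array. Per the flags, 67.6% of spots were well above background on the odor-enriched array and 73.7% on the control array.

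**Figure D1:**
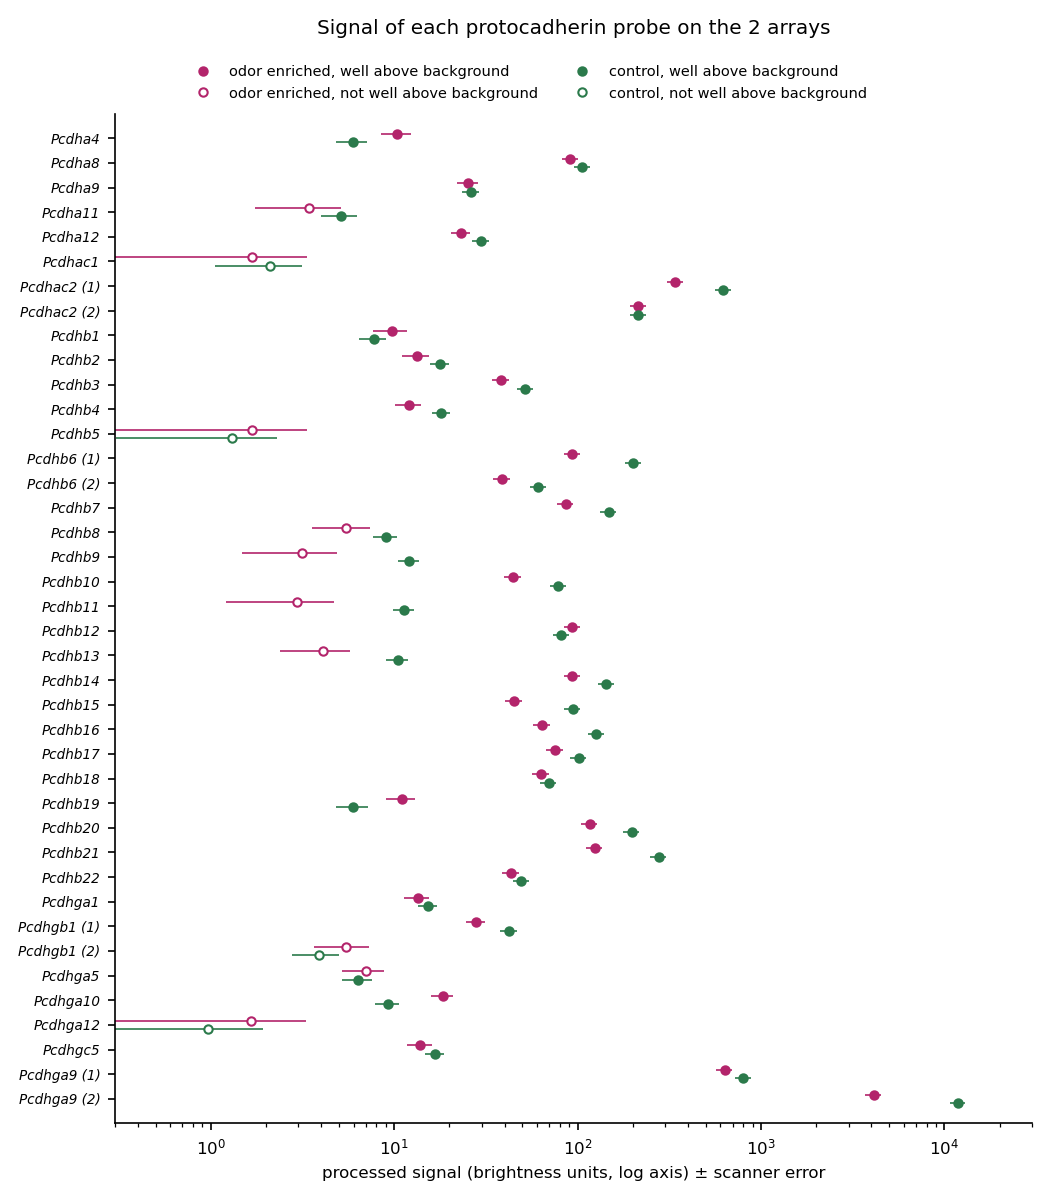
Processed signal of each of the 40 member probes (brightness units, log axis) on the odor-enriched array (upper point of each pair) and the control array (lower point), in chromosomal order, with the scanner software's error as bars; bars that reach 0 run to the edge of the axis. Open points are not well above background. The signals shown are not scaled between the arrays, so most control points lie to the right, as for Pcdhb21 with 124 in the odor-enriched and 277 in the control bulb.

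Differences were computed after each array's log2 signals were set relative to that array's 75th percentile, which was 7.66 log2 units in the odor-enriched and 7.97 in the control array. On this scale few members differed by 2-fold or more. Of the 27 measured members 3, namely Pcdha4, Pcdhb19 and Pcdhga10, were higher by 2-fold or more in the odor-enriched bulb, and 0 were lower by as much. Of the 23872 genes with a value on each array, the shares past the same threshold were 11.5% higher and 5.52% lower. The median difference of the 27 members was -0.12 log2 units, against 0.0016 over all genes, and their differences ran from -0.85 to 1.31. Scaling to 8 E1A spike-in probes instead moved every gene by -1.76, which put all 3 higher members below 0, so directions here are relative to the bulk of genes and not absolute. In bulk tissue, fewer cells of a type and less RNA per cell cannot be told apart.

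The scanner software also gives an error for each spot, which covers the reading of that spot and not the spread between mice. For the measured member probes it came to between 0.20 and 0.39 log2 units for a difference. The difference lay above 0 by more than 2 times this error for 4 members and below 0 for 8, and it lay within that range for 15. Members with 2 measured probes were counted with the error of their mean, 0.14 for Pcdhac2 and Pcdhga9 and 0.15 for Pcdhb6. That error leaves out disagreement between the probes, as for Pcdhga9, counted below 0 with probes at -0.02 and -1.21. Over all genes the shares were 28.0% above and 26.7% below. A second error is seen where a gene has several probes, whose differences had a pooled SD of 0.63 log2 units over the array, against 0.047 for repeat spots of a probe.

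**Figure D2:**
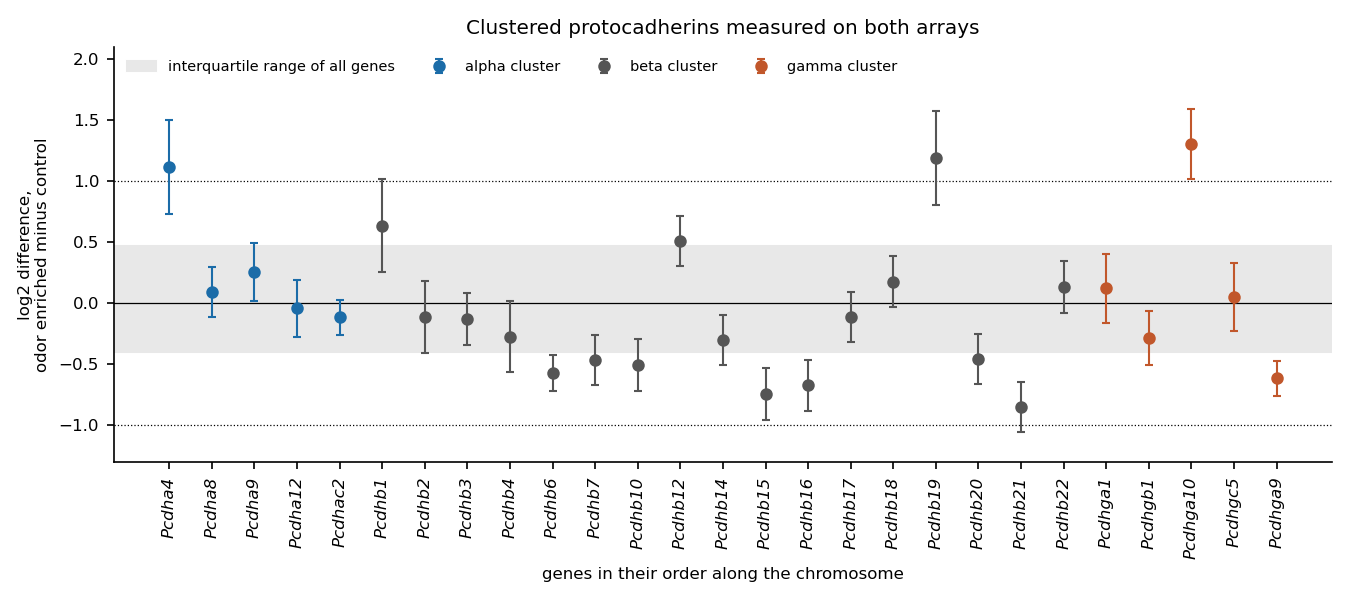
Log2 difference (odor enriched minus control) of the 27 members measured on both arrays, in chromosomal order; bars are the scanner error, dotted lines mark 2-fold and the grey band is the interquartile range of all genes (-0.40 to 0.47). The beta members below the band are Pcdhb6, Pcdhb7, Pcdhb10, Pcdhb15, Pcdhb16, Pcdhb20 and Pcdhb21.

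In the alpha cluster, whose isoforms are known in mice for sorting olfactory sensory axons and serotonergic axons, the variable isoforms lay near 0 apart from Pcdha4. Pcdha4 had a processed signal of 10.4 ± 1.93 in the odor-enriched bulb, against 5.94 ± 1.15 in the control bulb (scanner error). After scaling this was a difference of 1.12 ± 0.39 log2 units, or 2.17-fold higher. Both signals are close to the lowest values called well above background, 7.97 and 4.85 on the 2 arrays. The difference was under 2-fold with median centring (0.94), quantile normalization (0.89), cyclic loess (0.85) and normexp background correction (0.13).

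The other variable alpha isoforms differed by less than 2 times their scanner error. The Pcdha8 probe, which also lists Pcdha7, had 91.1 ± 9.26 in the odor-enriched bulb and 106 ± 10.7 in the control bulb, a difference of 0.09 ± 0.21. Pcdha9 had 25.3 ± 3.18 in the odor-enriched bulb and 26.3 ± 2.82 in the control bulb (0.26 ± 0.24). Pcdha12 had 23.2 ± 2.82 in the odor-enriched bulb and 29.7 ± 3.12 in the control bulb (-0.04 ± 0.23). The signs of these 3 small differences changed with the scaling. Pcdha11 had 3.42 ± 1.69 in the odor-enriched bulb, not well above background, against 5.13 ± 1.12 in the control bulb, and no fold can be given. Pcdhac1, a C-type isoform, had 1.67 ± 1.68 in the odor-enriched and 2.11 ± 1.05 in the control bulb and so gave no measurement. The alpha cluster as a whole had a median difference of 0.09 over 5 genes, with 2 of them below 0.

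The shared 3′ region of the alpha cluster was read by the pair of probes named Pcdhac2, after the C-type isoform known for the spacing of serotonergic axon arbors in mice. The first probe had 342 ± 34.2 in the odor-enriched bulb, against 620 ± 62.0 in the control bulb, a difference of -0.55 ± 0.20. The second, 2477 bases further 3′, had 215 ± 21.5 in the odor-enriched bulb and 214 ± 21.4 in the control bulb, a difference of 0.32 ± 0.20. The pair thus pointed in opposite directions, and its mean was -0.12 ± 0.14. Genomic and transcript distance between the probes are equal, so no intron lies between them. The gap of 0.87 log2 units is larger than in 75.9% of the 5181 genes with 2 measured probes, where the median gap is 0.46.

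The beta cluster held most of the measurable members, and there the lower values were in the majority. Of 17 measured beta genes 12 lay below 0, against 49.9% of all genes, and their median was -0.27 log2 units, or -0.28 relative to the median of all genes. Relative to that median it was below 0 at each of 14 other settings of scaling, filter and background correction, from -0.56 to -0.09. Some of these settings shift all genes alike and so cannot change this value. It stayed at -0.28 with median centring, the percentile over detected probes, E1A scaling and the series matrix values. The beta median itself was below 0 at 13 of the 14 settings and was 0.058 with the series matrix values. At the main setting 0 beta genes were lower by 2-fold or more, and 1, Pcdhb19, was higher by that much. Of all genes 5.52% were lower and 11.5% higher, so these counts are near those shares. Below 0 by more than 2 times their scanner error were 7 genes, Pcdhb6, Pcdhb7, Pcdhb10, Pcdhb15, Pcdhb16, Pcdhb20 and Pcdhb21, while Pcdhb12 and Pcdhb19 were above 0 by as much. Over all genes the shares were 26.7% below and 28.0% above. Each beta isoform is a complete adhesion receptor with its own ectodomain, and most have no separate known function.

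The lowest of the beta differences was that of Pcdhb21, with 124 ± 12.5 in the odor-enriched bulb, against 277 ± 27.7 in the control bulb. After scaling it was -0.85 ± 0.21 log2 units, 1.80-fold lower in the odor-enriched bulb, and -1.02 with median centring. Pcdhb15 had 45.2 ± 4.85 in the odor-enriched bulb and 93.8 ± 9.44 in the control bulb (-0.74 ± 0.21). These were the 2 lowest beta genes, and relative to the median of all genes both stayed below 0 at every setting run, Pcdhb21 from -1.06 to -0.63 and Pcdhb15 from -0.95 to -0.39. Settings that shift all genes alike cannot change these relative values. Pcdhb16, the neighbour of Pcdhb15, had 63.8 ± 6.59 in the odor-enriched bulb and 126 ± 12.7 in the control bulb (-0.67 ± 0.21). Pcdhb10 had 44.4 ± 4.88 in the odor-enriched bulb and 78.4 ± 7.91 in the control bulb (-0.51 ± 0.22). Pcdhb6 is the only beta gene with 2 probes, which both were lower. Its first probe had 93.4 ± 9.51 in the odor-enriched bulb and 201 ± 20.1 in the control bulb (-0.80 ± 0.21), and its second had 38.6 ± 4.19 in the odor-enriched bulb and 60.9 ± 6.17 in the control bulb (-0.35 ± 0.21). Their gap of 0.45 is close to the median gap of 0.46 for genes with 2 probes. The second probe was matched to no RefSeq gene, and the pair lies 1119 bases apart in the genome but 1201 in the transcript. Pcdhb7 had 86.1 ± 8.76 in the odor-enriched bulb and 147 ± 14.8 in the control bulb (-0.47 ± 0.21). Pcdhb20 had 116 ± 11.7 in the odor-enriched bulb and 197 ± 19.8 in the control bulb (-0.45 ± 0.21).

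Above 0 in the beta cluster were 5 genes, of which 2 exceeded 2 times their scanner error. Pcdhb19 had 11.0 ± 1.98 in the odor-enriched bulb, against 5.98 ± 1.18 in the control bulb, a difference of 1.19 ± 0.39 and 2.28-fold higher. It was under 2-fold with quantile normalization (0.96), cyclic loess (0.94) and normexp (0.09). Pcdhb12 had 93.6 ± 9.51 in the odor-enriched bulb and 81.6 ± 8.22 in the control bulb (0.51 ± 0.21). Of the 17 measured beta genes, the unscaled signal was higher in the odor-enriched bulb for Pcdhb1, Pcdhb12 and Pcdhb19 only. Pcdhb1, the first gene of the cluster, had 9.69 ± 2.03 in the odor-enriched bulb and 7.73 ± 1.27 in the control bulb (0.64 ± 0.38). Pcdhb18 (0.17 ± 0.21) and Pcdhb22 (0.13 ± 0.21) were within their error.

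The remaining beta genes measured on both arrays lay between -0.30 and -0.12, within 2 times their scanner error. They were Pcdhb14 (-0.30 ± 0.21), Pcdhb4 (-0.27 ± 0.29), Pcdhb3 (-0.13 ± 0.21), Pcdhb2 (-0.12 ± 0.29) and Pcdhb17 (-0.12 ± 0.21). All 5 turned positive with the deposited series matrix values, which raise the median of all genes by 0.33.

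Of the beta genes seen on the control array only, 3 were dim there and dimmer in the odor-enriched bulb. Pcdhb9 had 3.16 ± 1.69 in the odor-enriched bulb, not well above background, against 12.1 ± 1.55 in the control bulb. At the main scaling its control level was 1.22-fold above the lowest signal well above background on the odor-enriched array. No lower level can be claimed on that array. Pcdhb11 had 2.96 ± 1.75 in the odor-enriched and 11.3 ± 1.53 in the control bulb (control 1.14-fold above that lowest signal). Pcdhb13 had 4.07 ± 1.68 in the odor-enriched and 10.4 ± 1.43 in the control bulb (control 1.06-fold above it). These limits leave out the scanner error and depend on the scaling. In log2 units they are 0.29, 0.19 and 0.079, each smaller than the shift of 0.33 in all genes with the series matrix values. Pcdhb8, with 5.46 ± 1.91 in the odor-enriched and 9.0 ± 1.35 in the control bulb, gave no fold. Pcdhb5 had 1.68 ± 1.69 in the odor-enriched and 1.30 ± 0.997 in the control bulb and gave no measurement.

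In the gamma cluster, known in mice for the self-avoidance of dendrites and for the survival of interneurons, the isoform-specific probes held 1 higher gene and 3 near 0. Pcdhga10 had 18.4 ± 2.53 in the odor-enriched bulb, against 9.26 ± 1.36 in the control bulb, a difference of 1.31 ± 0.29 and 2.47-fold higher. It was the largest difference of all 27 members and fell to 0.17 with normexp, which adds an offset of 50 to every signal and so shrinks the differences of dim genes. Pcdhga1 had 13.4 ± 2.1 in the odor-enriched and 15.3 ± 1.83 in the control bulb (0.12 ± 0.28). Pcdhgc5, the C-type isoform known for its late postnatal onset and its association with GABA receptors, had 13.9 ± 2.15 in the odor-enriched and 16.7 ± 1.93 in the control bulb (0.05 ± 0.28). Both were within their error. Pcdhgb1 had 27.9 ± 3.22 in the odor-enriched and 42.2 ± 4.34 in the control bulb (-0.29 ± 0.22) on its measured probe, and its second probe was not well above background on either array. Pcdhga5 had 6.97 ± 1.78 in the odor-enriched and 6.37 ± 1.2 in the control bulb, above background in the control only, and gave no fold. Pcdhga12 had 1.65 ± 1.66 in the odor-enriched and 0.965 ± 0.969 in the control bulb and gave no measurement. The median over the 5 measured gamma genes was 0.05, and its sign changed with the scaling.

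The shared 3′ region of the gamma cluster, read by the probes named Pcdhga9, gave the widest disagreement among the 3 members with a measured probe pair. The first probe had 633 ± 63.3 in the odor-enriched bulb and 797 ± 79.7 in the control bulb, a difference of -0.02 ± 0.20. The second, 1653 bases further 3′ in both genome and transcript, had 4117 ± 412 in the odor-enriched bulb, against 11833 ± 1183 in the control bulb. Its difference was -1.21 ± 0.20, 2.32-fold lower in the odor-enriched bulb. The gap of 1.19 log2 units between the pair is larger than in 86.2% of genes with 2 measured probes. Their mean was -0.62 ± 0.14, so whether the gamma cluster as a whole was lower by 2-fold depended on the probe. With both probes left out, the gamma median was 0.08 over 4 genes. With the corresponding alpha probes left out, the alpha median was 0.17 over 4 genes.

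The 3 members at least 2-fold higher were all dim. When all genes were split into 5 equal groups by mean signal, the dimmest group held 10 of the 27 measured members and all 3 of these. Of all genes, the share higher by 2-fold or more was 17.1% in the dimmest group and then 12.6%, 10.1%, 8.53% and 9.26% towards the brightest. The share lower by 2-fold or more was 3.58% in the dimmest group and then 5.97%, 5.55%, 6.47% and 6.01%. The median difference of all genes was 0.29 in the dimmest group and -0.18 in the brightest. The filter for both arrays bears on the dim end. The lowest signal called well above background was higher on the odor-enriched array, at 7.97 against 4.85 brightness units, and stayed higher after scaling. Pcdha4, Pcdhb1, Pcdhb19 and Pcdhga10 had scaled control levels below that odor-enriched floor. They could thus be measured only with a difference above 0, while members seen on the control array only were left out. Higher values among dim genes are partly built in by this filter, and how far was not tested. Among members measured on both arrays, those of higher signal had lower differences, a relation that the filter also affects. Across the 27 members the difference and the mean signal had r = -0.64 (rho = -0.65), and across all genes r = -0.15 (rho = -0.23), where the points come from the same 2 arrays and genes are not independent replicates. In the middle group, with 9 members of which 8 are beta genes, the members' median was -0.45 against 0.0076 for all genes there. Relative to the median of their own signal group, 12 of 17 beta genes lay below 0, with a median of -0.40. Position along the chromosome and the GC content of the probes had weaker relations with the difference over the 27 members, with r = -0.15 and r = 0.23.

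**Figure D3:**
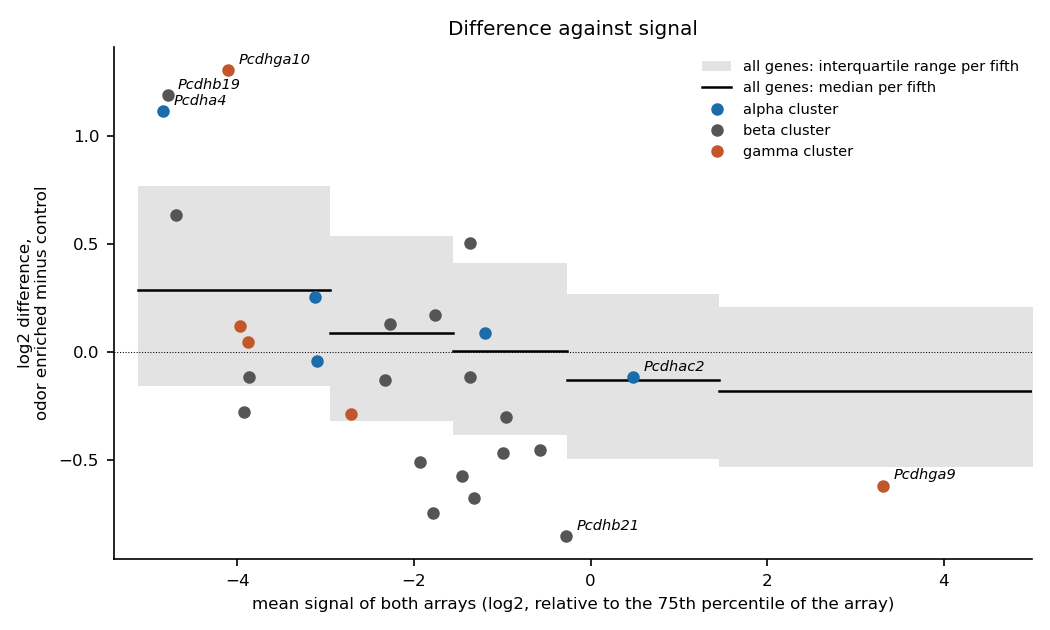
Log2 difference (odor enriched minus control) of the 27 measured members against their mean log2 signal relative to the 75th percentile of each array; grey boxes and black lines give the interquartile range and the median of all genes in 5 equal groups by signal. Pcdha4, Pcdhb19 and Pcdhga10 lie at the dim end, and the beta genes of middle signal lie mostly below the boxes' medians. Members seen on the control array only are not shown.

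The nonclustered protocadherins, which have similar ectodomains but separate genes and other tails, were all measured. Of 12 genes 3 were higher by 2-fold or more and 0 lower, with a median of 0.21, beside 11.5% and 5.52% of all genes. Pcdh12, the protocadherin of blood vessel endothelium, had the largest difference at 3.08 (0.68 with normexp), with normalized log2 levels of -2.34 in the odor-enriched and -5.42 in the control bulb. Only 1 of its 2 probes was measured, and the difference was 2.16 with no filter. Its control level is close to the lowest called well above background on that array, -5.69. Pcdh15, known from the tip links of hair cells, stood at 1.40 over 5 probes from 0.61 to 3.47, and Pcdh18 at 1.17. Both fell under 2-fold with normexp, Pcdh15 to 0.78 and Pcdh18 to 0.79, and Pcdh18 also with median centring (0.99). Pcdh17, an adhesion protein of axons and synapses, was lowest at -0.82, and passed 2-fold with its brightest probe (-1.20) and with E1A scaling (-2.58). The 8 endothelial markers had a median of 1.87, with 7 at least 2-fold higher, and their part in the value of Pcdh12 was not tested.

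Of 20 genes that act on protocadherin promoter choice and silencing, 0 were higher by 2-fold or more and 1 was lower, beside 11.5% and 5.52% of all genes, with a median of -0.14. The lower call was lost at 5 of 14 other settings. Smchd1, a chromatin protein that silences protocadherin clusters, had the highest value, 0.97 over 5 probes from 0.53 to 1.31, and passed 2-fold with the percentile over detected probes (1.05) and the series matrix values (1.30). Ctcf, which binds the promoters and enhancers of the clusters, stood at -0.03. Cohesin subunits lay on both sides of 0, with Rad21 at -0.49, Smc3 at -0.41, Stag1 at -0.08, Smc1a at 0.17 and Stag2 at 0.18, and the loaders Mau2 and Nipbl at -0.56 and 0.39. Probes of the same gene differed in sign for Stag1 (-0.58 to 0.50), Mau2 (-1.34 to 0.22) and Nipbl (-0.39 to 1.34). Setdb1, a histone methyltransferase that represses the clusters, stood at -0.62 and the DNA methyltransferase Dnmt3b at 0.37.

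Of 21 partners of the cytoplasmic tails 0 passed 2-fold in either direction, beside 11.5% of all genes higher and 5.52% lower, and the median was -0.19. Adam10, the protease that sheds the ectodomains, was highest at 0.91 with probes at 0.43 and 1.39, and passed 2-fold with loess (1.0025) and the series matrix values (1.24). Ret, a receptor tyrosine kinase reported to bind clustered protocadherins, was lowest at -0.96, with normalized log2 levels of -3.59 in the odor-enriched and -2.63 in the control bulb. It passed 2-fold with median centring (-1.14), quantile normalization (-1.16), loess (-1.03) and E1A scaling (-2.72). Ptk2 and Ptk2b, the focal adhesion kinases that the tails inhibit, stood at 0.63 and -0.58. Members of the WAVE complex, which the alpha tail can recruit to actin, lay between -0.56 (Brk1) and 0.19 (Cyfip1). Probes of the same gene differed in sign for Nckap1 (-1.54 to 0.78), Abi2 (-0.98 to 0.74) and Cyfip1 (-0.27 to 1.04).

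**Figure D4:**
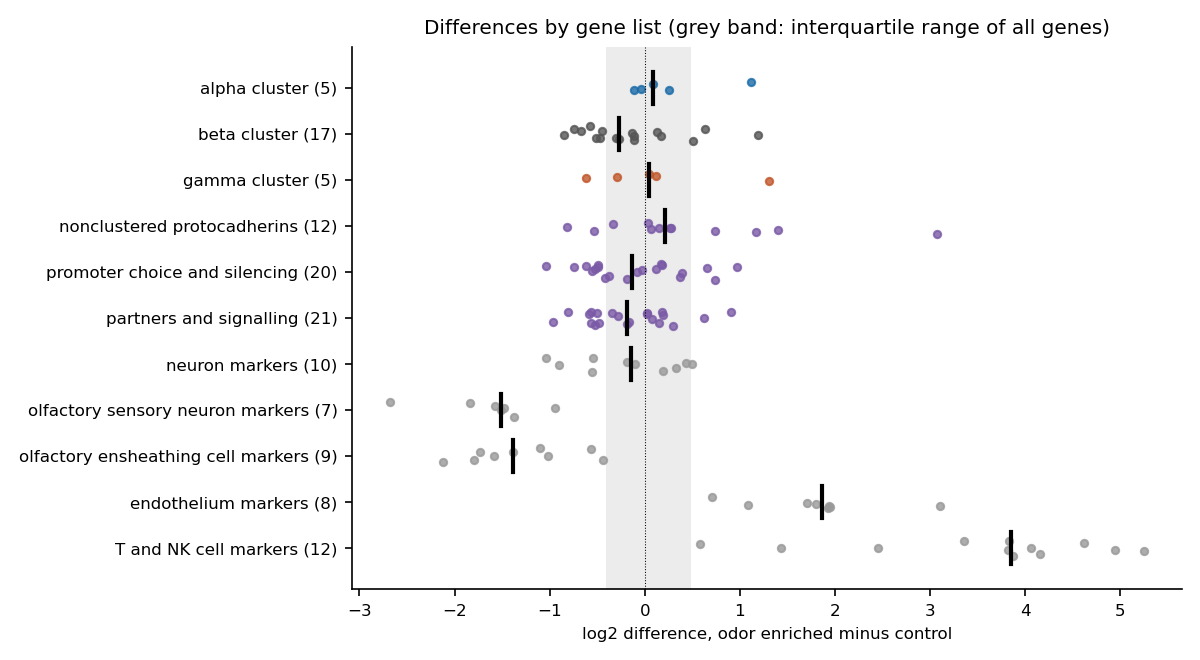
Log2 difference (odor enriched minus control) of each measured gene (points) in the 3 protocadherin clusters, 3 lists of related genes and 5 lists of cell markers, with the median as a black bar and the number of genes in brackets; the grey band is the interquartile range of all genes. The medians of the clusters lie inside the band, those of sensory neuron and ensheathing cell markers below it and those of endothelium and T and NK cell markers above it.

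Marker lists of other cell types ranged widely, and their counts stand beside 11.5% of all genes higher and 5.52% lower by 2-fold or more. All 10 general neuron markers were measured, with a median of -0.15 and 1 at least 2-fold lower, and all 10 markers of GABA interneurons, with a median of -0.19 and 0 past 2-fold. The summed normalized level of the neuron markers, in multiples of the array's 75th percentile, was 36.4 in the odor-enriched and 53.3 in the control bulb. This sum is weighted to the brightest markers, of which Syn1 stood at -1.03, while 6 of the 10 lay below 0 and 4 above. Of 10 markers of olfactory sensory neurons, the cells whose axons enter the bulb, 7 were measured and 6 were at least 2-fold lower, and 3 more were above background in the control only. Their summed level was 112 in the odor-enriched and 486 in the control bulb. Of 9 measured markers of olfactory ensheathing cells, the glia around those axons, 7 were at least 2-fold lower (median -1.39). Medians were -0.65 for 8 mitral and tufted cell markers, -0.65 for 8 astrocyte, 0.43 for 8 oligodendrocyte, -0.02 for 8 microglia and -0.65 for 8 meningeal fibroblast markers. Markers of T and NK cells were higher, 11 of 12 by at least 2-fold, with summed levels of 34.6 in the odor-enriched and 2.35 in the control bulb. All markers of these lists had a probe on the array, and their part in the protocadherin values was not tested.

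**Figure D5:**
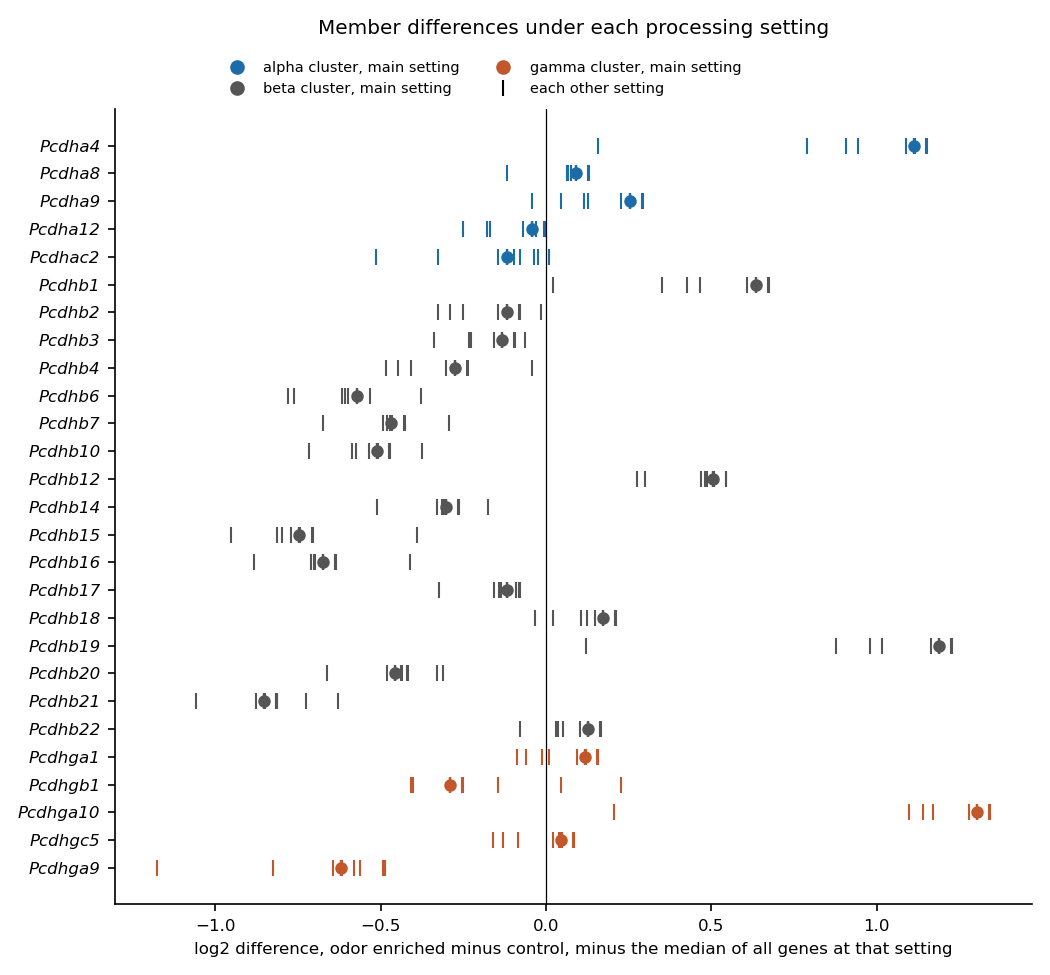
Log2 difference (odor enriched minus control) of each measured member at the main setting (points) and at each other setting (ticks), after the median of all genes at that setting was subtracted. The 12 beta genes below 0 at the main setting stay left of 0 at every setting run for them, and the 3 highest members come nearest to 0 with normexp. Settings that shift all genes alike cannot move a tick away from the point.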

How the data were processed

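Per the labels, Cy3-labelled RNA of each bulb was hybridized to an Agilent mouse array. Per the file headers, the deposited processed signal is an intensity from Agilent Feature Extraction 11.5.1.1, background-subtracted and detrended within the array, on a design with mm9 coordinates. The deposited series matrix holds log2 values that lie within 0.05 of the log2 processed signal minus a constant per array for 99.1% of control probes and a larger share of odor-enriched probes, with medians of -8.98 (odor enriched) and -9.48 (control). The scale is thus known, while what the constant stands for is not given in the sources used here.

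Outlier-flagged spots (183 on the odor-enriched and 122 on the control array, 0 of them members) were left out. None of the member probes lay in a bright patch, taken as a local median difference beyond 1.2 log2 units either way. Smaller local shifts were not corrected. The local medians around member probes ran from -0.39 (Pcdhb15) to 0.50 (first Pcdhb6 probe), and that around Pcdhb4 was -0.27. Log2 signals of a probe's spots were averaged and the array's 75th percentile subtracted. Where several probes of a gene were well above background on each array, their values were averaged, and genes were counted at a 2-fold threshold. Errors of a difference combine the scanner software's errors of both signals. The members, lists and settings were chosen with earlier results of these data known. All 36 members are named with values. The rule written for naming asked for those at least 2-fold different, the C-type isoforms, those seen on 1 array, the 2 highest and 2 lowest per cluster and those with several probes, and the others were added to account for each member. Of other lists, the genes past 2-fold and the highest and lowest were named, and further genes were added after their values were seen. A gene of the promoter choice list is not reported here by name. Wapl was matched through its older name Wapal. R 4.3.3 (limma 3.58.1) and Python 3.11.15 (pandas 2.3.3, numpy 2.4.6; figures with matplotlib 3.10.9) were used, and the calculation was tested on simulated data.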

Additional observations from a re-analysis of the deposited data

How the results depend on the processing

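No paired analysis was possible because each condition had 1 array, which also left no replicate to drop. The other settings moved the median of all genes by -0.17 (median centring), 0.082 (percentile over detected probes), -0.058 (quantile), 0.063 (loess), -1.76 (E1A spike-ins), -0.033 (normexp), 0.33 (series matrix), 0.21 (no filter), -0.13 (genes of at least median signal), with smaller shifts at the others. The share of higher genes among all past 2-fold was 67.6% at the main setting, 50.9% with median centring, 80.3% with no filter, 88.5% with the series matrix and 1.85% with E1A scaling.

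The alpha cluster had 1 higher member (Pcdha4) at the main setting and 0 with median centring, quantile, loess, E1A scaling, normexp, genes of at least median signal and a 3-fold threshold. The beta cluster had 1 (Pcdhb19) and then 0 with quantile, loess, E1A, normexp, median-signal genes and 3-fold, and 2 at 1.5-fold. The gamma cluster had 1 (Pcdhga10) and then 0 with E1A, normexp, median-signal genes and 3-fold, and 2 with no filter. Lower members were 0 in each cluster at the main setting. The beta cluster had 1 lower (Pcdhb21, -1.02) with median centring and 3 at 1.5-fold. It also had 3 with probes bright on either array, no filter and the positive-and-significant flag. These settings admit genes seen on the control array only, for which the results give limits at the main scaling instead. The gamma cluster had 1 lower with the brightest probe and 1 at 1.5-fold.

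E1A scaling shifts every gene alike, and it gave 4 alpha, 16 beta and 4 gamma members lower, where 83.6% of all genes were lower. Medians there were -1.67 (alpha), -2.03 (beta), -1.71 (gamma), -1.88 (all members), -1.55 (nonclustered), -1.90 (promoter choice) and -1.95 (partners). The signs of Pcdha4 (-0.64), Pcdhb19 (-0.57), Pcdhga10 (-0.45), Pcdh15 (-0.36) and Pcdh18 (-0.59) were reversed. The gamma median was -0.62 with median-signal genes, where 1 gene was left. Beyond the construction of each setting, the cause was not tested. Signals near background limit the dim members.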

Other observations

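Within, between and just past the protocadherin clusters the array also has probes of other gene names, which give values for this stretch of chromosome 18. Taf7, a subunit of the general transcription factor TFIID encoded between the beta and gamma clusters on the opposite strand, had a measured probe at 0.55 ± 0.21 (scanner error), with a signal of 129 ± 13.0 in the odor-enriched and 110 ± 11.0 in the control bulb. The other Taf7 probe was well above background on the control array only, as was the probe of Slc25a2, also between these clusters. There too, 3222401L13Rik on the plus strand stood at -0.31 ± 0.26, with 15.1 ± 2.21 in the odor-enriched and 23.1 ± 2.52 in the control bulb. Diap1, the formin gene now called Diaph1 that follows the gamma cluster, had probes at 0.29 ± 0.20 and -0.19 ± 0.21. A probe of Gm38666, a predicted readthrough gene that the design also ties to Pcdha5 and Pcdha10, stood at 0.65 ± 0.27, with 17.7 ± 2.44 in the odor-enriched and 14.0 ± 1.74 in the control bulb. The other Gm38666 probe was not well above background on either array. Gm10545 and Gm10544, transcribed from the strand opposite to the alpha cluster, were not well above background on either array.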
